A study of Mus musculus with 18 samples.

Results

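CD8+ T cells that had received a guide against Nur77 were compared after overnight exposure to 50 µM lithocholic acid (LCA) and without LCA. The comparison takes 6 of the 18 libraries of the series, chosen by their labels alone, with 3 in each group, and it covers every gene of the count table. Naive mouse CD8+ T cells were isolated, the Nur77 gene (symbol Nr4a1) was targeted with a CRISPR ribonucleoprotein built on a Synthego guide kit, and the cells were activated through CD3 and CD28 and exposed to LCA. Total RNA from the cells was made into ultra-low input cDNA libraries. The groups used here are labelled Nur77-KO with 50 µM LCA (LCA50), Nur77-KO with 10 µM LCA (LCA10) and Nur77-KO without LCA (control), and, for comparison, WT with 50 µM LCA and WT without LCA, where WT cells went through the same steps with a scrambled guide. Unless WT is named, LCA50, LCA10 and control below mean Nur77-KO cells, so the control cells carry the Nur77 guide as well. The labels name no vehicle for the control cells, call the guide treatment both a knockdown and a knockout, give no editing rate and do not say whether the 3 libraries of a group came from separate mice or cultures. The p-values below therefore rest on how far these libraries vary, which may be technical variation only.

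Lithocholic acid is a secondary bile acid that gut bacteria make from a primary bile acid of the liver, and it is among the more toxic bile acids for cells. Nur77 is an orphan nuclear receptor of the Nr4a family whose gene is switched on within the first hours of T cell receptor signalling. Several responses of activated T cells to metabolic stress are well mapped. The transcription factor ATF4 raises genes for amino acid uptake and synthesis when translation initiation is impaired, SREBP factors drive sterol and fatty acid synthesis, liver X receptors respond to oxysterols, and NRF2 raises genes for glutathione synthesis.

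The LCA50 libraries held 4113713, 5144994 and 5139903 counts in replicates 1, 2 and 3, and the control libraries 5073981, 5328029 and 5945518. LCA50 replicate 1 stood apart from LCA50 replicates 2 and 3 in several ways that are not tied to 1 pathway. Its counts over 1451 olfactory, pheromone and trace amine receptor genes, which T cells should not express, summed to 163 CPM (counts scaled to library size), against 46.8 and 92.4 in LCA50 replicates 2 and 3 and 93.5 to 112 CPM in control. It had 17254 genes with a count, against 14936 and 16069 in replicates 2 and 3, and it lay at 41.9 on the first principal component of the 18 libraries, where replicates 2 and 3 lay at 0.693 and 5.82. In background and gene number it lay within the range of WT cells at 50 µM LCA, whose 3 libraries had a receptor background of 120, 137 and 220 CPM, 16564, 16981 and 17518 genes with a count and first component values of 12.1, 23.2 and 29.4. WT control libraries had a background of 78.9, 106 and 50.4 CPM. The CD8 T cell markers summed to 2930, 3370 and 3430 CPM in LCA50, against 3430 to 3610 CPM in control. Among markers of other cells, the B cell list reached 132 CPM in LCA50 replicate 1, against 54 and 56 CPM in replicates 2 and 3 and 54.8 to 58.6 CPM in control, and most of it came from Cd74, which had 498 counts there. Of 3 tested members of the B cell list 1 was called, lower. The NK cell list, mostly Gzma, was at 37.9, 142 and 130 CPM in LCA50 and 123 to 153 CPM in control, with 0, 0 and 2 counts of Ncr1 in LCA50 and 2, 0 and 3 in control. CD4 T cell markers summed to 242 to 302 CPM in LCA50 and 290 to 299 CPM in control, with Cd4 itself at 4, 0 and 1 counts in LCA50 and at 0 in each control library. Most of that sum is Ctla4, which was called lower, while Ccr4 was called higher and 5 of 6 tested members had a positive change (median 0.69). The list's median difference from the control mean was 1.29, 0.13 and 0.30 in LCA50 replicates 1, 2 and 3, and Zbtb7b, the factor of the CD4 lineage, had 84, 33 and 32 counts in LCA50 and 22, 20 and 26 in control. Myeloid markers reached at most 44 CPM and those of red cells and platelets at most 8.75 CPM in any of the 6 libraries. The part that these features of replicate 1 play in the results below was not tested. The number of calls, the counts of several lists and the lost calls of many single genes are also given without that library. The other values below include it. In bulk RNA, fewer cells of a type and less RNA per cell cannot be told apart.

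The targeted gene, Nr4a1 (chromosome 15, 101254269 to 101274795, GRCm38), was at 15.7, 7.53 and 7.07 CPM in LCA50 and at 12.1, 7.73 and 12 CPM in control. The ranges overlapped, and the log2 fold change was -0.09 ± 0.33 (standard error, SE; edgeR adjusted p = 0.922). WT libraries had 18.02, 14.9 and 7.90 CPM with 50 µM LCA and 11.4, 11.6 and 5.87 CPM without it. A cut repaired with a few bases gained or lost need not alter how many reads a gene gives, so these counts check neither the edit nor the labels. The family members Nr4a2, at 5, 8.12 and 9.62 CPM in LCA50 against 12.4, 11.7 and 12.3 CPM in control, and Nr4a3, at 8.58, 9.11 and 8.84 CPM in LCA50 against 8.3, 3.4 and 4.06 CPM in control, did not overlap between the groups, as was true upward of 11.5% and downward of 11.9% of tested genes. Neither was called (edgeR adjusted p = 0.155 for Nr4a2 and 0.16 for Nr4a3).

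Of 11651 genes tested, 740 were called at an edgeR quasi-likelihood adjusted p under 0.05 (6.35%), with 341 higher in LCA50 (2.93%) and 399 lower (3.42%). Of these, 66 were higher (0.566% of tested genes) and 75 lower (0.644%) by at least 2-fold, and in 717 of the 740 the CPM of the LCA50 and control libraries did not overlap (6.15% of tested genes). The median log2 fold change over all tested genes was 0.004, and the median SE was 0.153. The number of calls depended on single libraries, with 481, 438 and 381 genes called without control replicate 1, 2 or 3, and 440 without LCA50 replicate 1. Leaving out LCA50 replicate 2 or 3 gave 757 and 824 calls. Fitted without the other groups, the LCA50 and control libraries gave 351 calls, and 50 of the named genes lost theirs, among them Scin, Agap1, Cth, Ifng, Vldlr, Trib3, Thbs1, Fut4, Sqle, Cyp51, Cd27, Tbx21, Cish, Lonp1 and Klrk1. All 740 genes kept their sign without LCA50 replicate 1, and 393 of them kept their call. The 717 without overlap were nearly bound to keep their sign, so the kept signs are no check on replicate 1.

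Among genes that rose, Lmna (chromosome 3, 88480147 to 88509956, minus strand) encodes lamins A and C of the nuclear lamina. It was at 173, 213 and 157 CPM in LCA50 and at 36.1, 31.5 and 46.8 CPM in control. Every LCA50 library was more than 3 times above every control library, and the change was 2.24 ± 0.23 (edgeR adjusted p = 3.27e-05). Rxra, the retinoid X receptor that pairs with many nuclear receptors, was at 46.7, 46.7 and 29.4 CPM in LCA50 and at 15, 10.2 and 8.11 CPM in control. It rose by 1.89 ± 0.29 (edgeR adjusted p = 0.00028). Ikzf4, which encodes the transcription factor Eos, was at 59.6, 27.7 and 33 CPM in LCA50 and at 9.68, 14.1 and 16.4 CPM in control, with replicate 1 far above the other two LCA50 libraries. It rose by 1.56 ± 0.21 (edgeR adjusted p = 1.14e-05). Among abundant genes, the intermediate filament gene Vim was at 1933, 1864 and 1645 CPM in LCA50 and at 1122, 1148 and 1114 CPM in control, a rise of 0.68 ± 0.06 that had the second smallest p of all genes (edgeR adjusted p = 5.35e-09). Mov10, an RNA helicase, and Gadd45g, a stress sensor that binds MAP3K4, rose by 0.88 ± 0.09 and 1.17 ± 0.11 (edgeR adjusted p = 9.8e-08 for each). The aquaglyceroporin gene Aqp9 (1.03 ± 0.12) and the kinase gene Sgk1 (1.24 ± 0.16) also rose, and no LCA50 library of either overlapped a control library.

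On the other side, Hic1 (chromosome 11, 75164565 to 75169519, minus strand), a transcriptional repressor, was at 2.15, 3.17 and 0.982 CPM in LCA50 and at 19.6, 10.2 and 15.2 CPM in control. All LCA50 values were far below all control values, and the change was -2.82 ± 0.38 (edgeR adjusted p = 5.81e-06). Gimap3 (chromosome 6, 48764464 to 48770851, minus strand), a GTPase of a family expressed in lymphocytes, had the smallest p of all genes. It was at 260, 289 and 283 CPM in LCA50 and at 497, 509 and 524 CPM in control, with a change of -0.88 ± 0.07 (edgeR adjusted p = 8.07e-10). The 3 LCA50 libraries lay within 30 CPM of each other, so replicate 1 did not stand out for this gene. Itih5, a hyaluronan-binding matrix gene, fell by 2.85 ± 0.37 on the log2 scale, to 1 count in LCA50 replicate 1. Acp5, the tartrate-resistant phosphatase, fell by 1.39 ± 0.16 and Tg, the thyroglobulin gene, by 1.53 ± 0.19. Zfp280b, a zinc finger gene, fell by 0.93 ± 0.11. The other genes among the 15 lowest were Art2b, Fut4, Lsr, Tspan2, Grtp1, Med12l, Klhl23, Capn3 and Pld4, and the lipid genes Scd1, Abcg1 and Pltp described below. Of these, Lsr lost its call without control replicate 2, control replicate 3 or LCA50 replicate 2 (edgeR adjusted p of 0.0512 to 0.0998), and Pld4 without control replicate 3 (edgeR adjusted p = 0.0566).

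**Figure D1:**
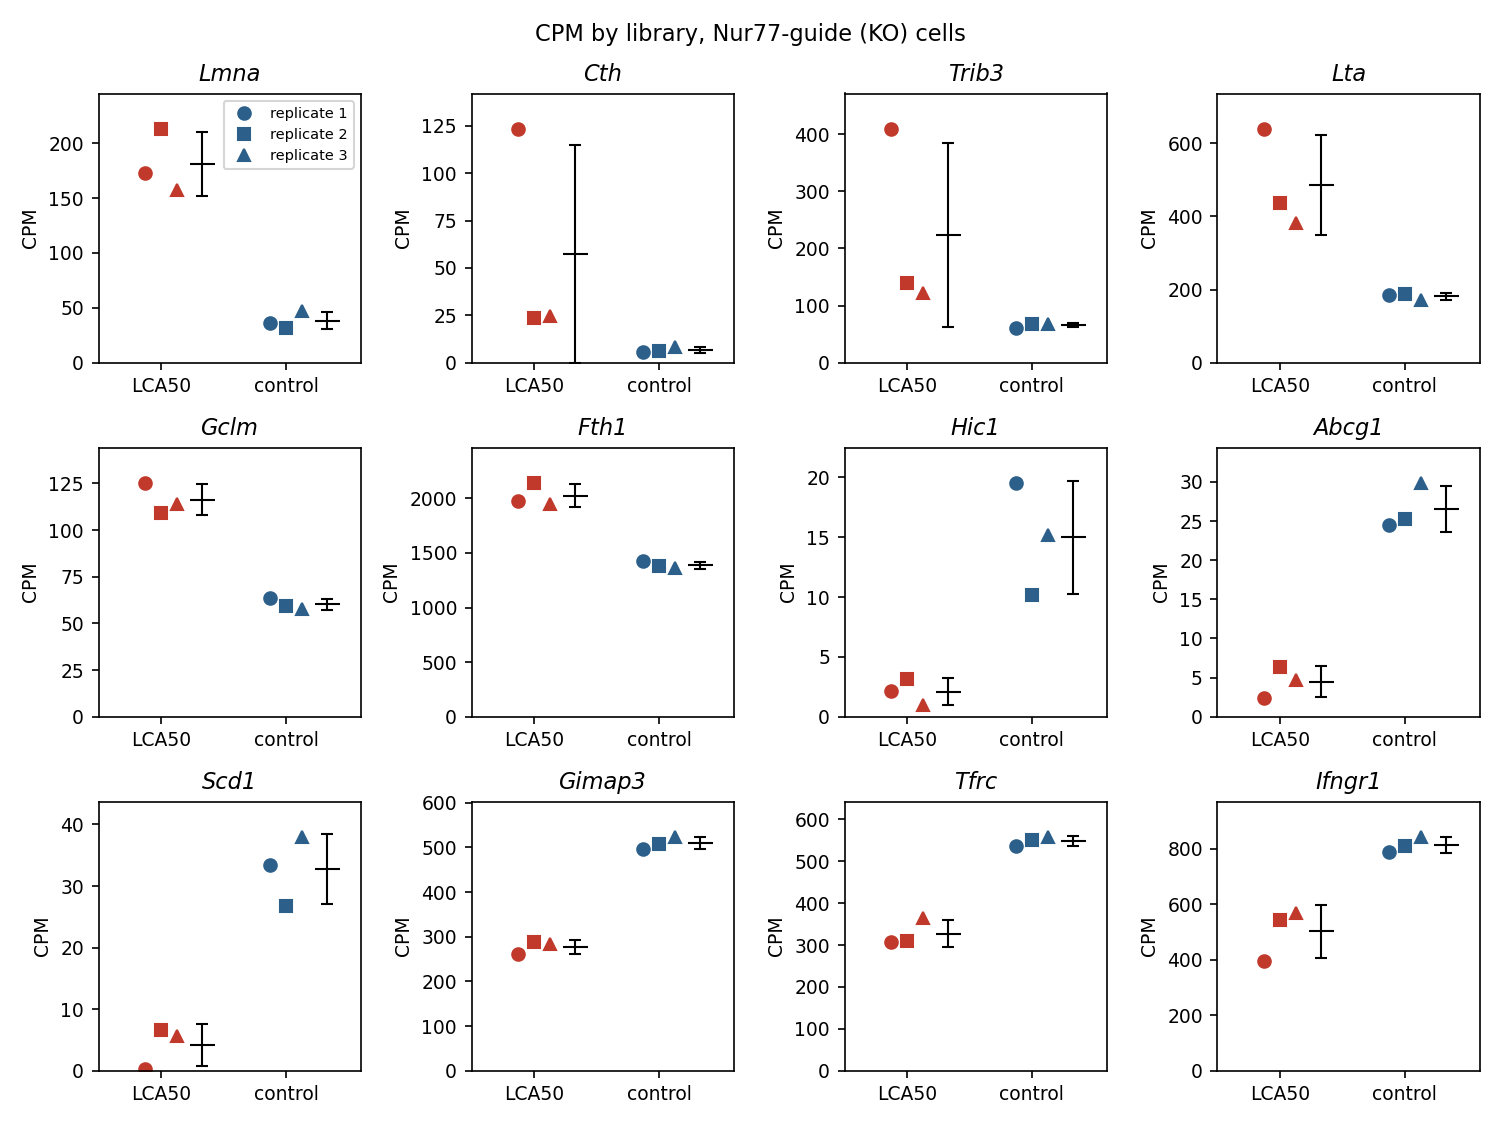
CPM of 12 genes in each LCA50 library (left) and each control library (right), with 1 point a library, the replicate shown by the symbol and a black bar for the mean ± SD of 3 libraries. The groups do not overlap in any of the 12 panels, and the replicate 1 circle lies far above the other LCA50 points for Cth (124 CPM against 23.4 and 24.7) but between them for Lmna and close below them for Gimap3.

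Genes of amino acid supply and of the ATF4 stress response were called higher far more often than lower. The shares over all tested genes, beside which this and every later list count at LCA50 stands, were 2.93% higher and 3.42% lower. Of 22 tested regulators and effectors of the integrated stress response, 10 rose and 0 fell, with a median change of 0.52. Of 25 amino acid transporters 5 rose, of 26 genes of amino acid and one-carbon synthesis 9 rose and 1 fell, and of 20 cytosolic aminoacyl-tRNA synthetases 8 rose. The medians of these 3 lists were 0.10, 0.16 and 0.19. Without LCA50 replicate 1 the higher counts were 6, 4, 7 and 5, and in the 6 fits that each leave out 1 library they ranged from 5 to 13, 4 to 8, 7 to 10 and 3 to 9. The stress response count was 5 without each control library, and the synthetase count was 3 without control replicate 3.

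Cth (chromosome 3, 157894248 to 157925077, minus strand), the enzyme that makes cysteine from cystathionine, was at 124, 23.4 and 24.7 CPM in LCA50 and at 5.53, 6.22 and 8.28 CPM in control. Replicate 1 was about 5 times above the other LCA50 libraries, and all 3 were above every control library. The change was 3.07 ± 0.61 (edgeR adjusted p = 0.00971) and, without replicate 1, 1.84 ± 0.27 (edgeR adjusted p = 8.71e-06). The pseudokinase gene Trib3, an ATF4 target that feeds back on ATF4, was at 410, 139 and 121 CPM in LCA50 and at 61.2, 67.5 and 67.6 CPM in control, with the same high replicate 1. It rose by 1.76 ± 0.38 (edgeR adjusted p = 0.0153), and by 0.99 ± 0.13 without replicate 1. Nupr1, a small stress-induced chromatin protein, was at 39.3, 15.8 and 16.7 CPM in LCA50 and at 5.14, 9.62 and 8.28 CPM in control, a change of 1.62 ± 0.33. Chac1, which breaks down glutathione, rose by 1.21 ± 0.22 (edgeR adjusted p = 0.000458), with more even values of 32.2, 25.9 and 21.4 CPM in LCA50 against 12.6, 10.4 and 11.2 CPM in control. Atf4 itself was at 605, 415 and 429 CPM in LCA50 and at 323, 326 and 339 CPM in control (0.55 ± 0.10). The AP-1 repressor Jdp2 (0.84 ± 0.16) and the lipoprotein receptor Vldlr (1.85 ± 0.50) were also called, and so were Cebpg, Eif4ebp1, Sesn2 and Stc2. Cebpg was not called without LCA50 replicate 1 (edgeR adjusted p = 0.258). Vldlr lost its call without any control library or LCA50 replicate 1 (edgeR adjusted p of 0.0786 to 0.167), and Trib3 lost it without each control library (edgeR adjusted p of 0.0564 to 0.0619).

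Among transporters, the 2 chains of the large neutral amino acid carrier rose together. The light chain Slc7a5 was at 964, 1005 and 940 CPM in LCA50 and at 674, 674 and 708 CPM in control (0.50 ± 0.07, edgeR adjusted p = 3.23e-06). The heavy chain Slc3a2 was at 679, 606 and 572 CPM in LCA50 and at 437, 417 and 386 CPM in control (0.58 ± 0.07, edgeR adjusted p = 1.97e-06). For both genes the LCA50 libraries were close to each other, and replicate 1 was not far from the others. The cationic carrier Slc7a1 (0.45 ± 0.10), its relative Slc7a3 and the glutamine carrier Slc1a5 (0.34 ± 0.08) were also called, Slc1a5 not without LCA50 replicate 1 (edgeR adjusted p = 0.0628). The asparagine synthetase gene Asns (chromosome 6, 7675169 to 7693254, minus strand) was at 589, 462 and 421 CPM in LCA50 and at 318, 334 and 304 CPM in control, a rise of 0.62 ± 0.09 (edgeR adjusted p = 5.59e-05). The mitochondrial folate enzyme Mthfd2 (0.48 ± 0.08), the branched-chain transaminase Bcat1 (0.61 ± 0.11) and the proline synthesis enzyme Pycr1 (1.04 ± 0.22) rose, as did Aldh18a1, Gpt2, Psat1 and Shmt2. Psat1 was not called without LCA50 replicate 1 (edgeR adjusted p = 0.175). Mat2b, a subunit of methionine adenosyltransferase, fell by 0.34 ± 0.09, but not without control replicate 2, LCA50 replicate 1 or LCA50 replicate 2 (edgeR adjusted p of 0.057 to 0.111). The synthetase genes Aars, Sars, Nars and Mars rose by 0.40 ± 0.08, 0.37 ± 0.07, 0.30 ± 0.07 and 0.29 ± 0.07, and Cars, Farsb, Iars and Lars were called as well. Mars lost its call without control replicate 1 or 3 (edgeR adjusted p of 0.0528 to 0.111).

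The element that ATF4 binds with C/EBP factors was searched as TGATGNAA on both strands of RefSeq promoter windows (GRCm38.p6, 250 bases before to 50 after a start). Of 9343 tested genes with a window, 260 held a match (2.78%), against 21 of 272 genes called higher (7.72%) and 13 of 317 called lower (4.1%). In the 4 amino acid and stress lists together, 17 of 72 tested members with a window held one (23.6%), and 9 of the 24 members that were called higher (37.5%). Windows of Asns, Chac1, Nupr1, Aars and Pycr1 are printed as examples of genes that rose here and have a match before the start, and the capitals mark the match on either strand. A match describes the letters of the window and is neither a shown binding site nor a cause.
Asns, chr6:7693201-7693256, minus strand, match beginning 23 bases before the start: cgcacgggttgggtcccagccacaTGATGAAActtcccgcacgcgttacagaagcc
Chac1, chr2:119351025-119351080, plus strand, 193 bases before the start: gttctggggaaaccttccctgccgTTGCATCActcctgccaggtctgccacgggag
Nupr1, chr7:126625549-126625604, minus strand, 110 bases before the start: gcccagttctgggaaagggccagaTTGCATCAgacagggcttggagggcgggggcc
Aars, chr8:111033706-111033761, plus strand, 112 bases before the start: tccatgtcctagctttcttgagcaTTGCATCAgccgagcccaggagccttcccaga
Pycr1, chr11:120643820-120643875, minus strand, 103 bases before the start: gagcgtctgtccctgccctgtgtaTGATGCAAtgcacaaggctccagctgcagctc
Jdp2 and Vldlr also had a match before the start, and Trib3 and Iars held one in their windows. The other motifs were searched on both strands as well. A window with the sterol regulatory element TCACNCCAC was held by 128 of the 9343 tested genes with a window (1.37%). It was held by 1 of 40 tested cholesterol and fatty acid synthesis genes (2.5%) and by 0 of the 13 of them that were called lower. The antioxidant response element TGACNNNGC was in a window of 1590 of the 9343 genes (17%), of 11 of 31 tested genes of the glutathione, NRF2 and iron lists (35.5%) and of 3 of the 5 called higher.

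Called genes of lipid synthesis were lower. Of 28 tested genes of cholesterol synthesis and uptake 10 fell and 0 rose, with a median change of -0.46 and 1 positive value. Of 23 genes of fatty acid synthesis and desaturation 8 fell and 0 rose (median -0.30). Of 16 liver X receptor genes and targets 6 fell and 2 rose (median -0.40). The lists share members, and Srebf1 and Scd1 count as lower in both the fatty acid and the liver X receptor list. Without LCA50 replicate 1 the lower counts were 6, 4 and 6, and without control replicate 3 the first list fell to 4 and the second to 3 calls. Over single libraries left out the cholesterol list ranged from 4 to 18 and the fatty acid list from 3 to 10.

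The Δ9 desaturase gene Scd1 (chromosome 19, 44394455 to 44407879, minus strand) was at 0.238, 6.54 and 5.69 CPM in LCA50 and at 33.4, 26.8 and 38 CPM in control, with a single count in LCA50 replicate 1. No library overlapped, and the change was -2.92 ± 0.44 (edgeR adjusted p = 0.0005). Abcg1 (chromosome 17, 31057675 to 31117988), the cholesterol exporter that liver X receptors induce, was at 2.38, 6.34 and 4.71 CPM in LCA50 and at 24.5, 25.3 and 29.9 CPM in control (-2.54 ± 0.31, edgeR adjusted p = 2.04e-06). Pltp, a phospholipid transfer protein and another liver X receptor target, was at 3.34, 7.33 and 10.4 CPM in LCA50 and at 24.5, 20.2 and 24.2 CPM in control (-1.68 ± 0.27). Srebf1, the gene of SREBP1, was at 135, 184 and 149 CPM in LCA50 and at 239, 228 and 216 CPM in control (-0.55 ± 0.09, edgeR adjusted p = 0.000187). Acss2, which makes acetyl-CoA from acetate, fell by 1.18 ± 0.22, and the citrate lyase gene Acly by 0.38 ± 0.09. In cholesterol synthesis, Acat2 (-0.60 ± 0.12), Sqle (-0.56 ± 0.11), Cyp51 (-0.59 ± 0.13) and Msmo1 (-0.48 ± 0.11) fell. Sqle, the squalene epoxidase gene, was at 134, 218 and 209 CPM in LCA50 and at 276, 274 and 276 CPM in control, so that replicate 1 was the lowest library and all LCA50 values lay under all control values. Called members without values here included Insig1, Nsdhl, Srebf2, Stard4 and Tm7sf2 in the first list, Elovl6, Mlxip, Scd2 and Slc25a1 in the second and Smpdl3a in the third. Acly lost its call without control replicate 3 or LCA50 replicate 1 (edgeR adjusted p of 0.0564 to 0.0736), and Msmo1 without LCA50 replicate 1 (edgeR adjusted p = 0.0513).

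The 2 liver X receptor list members that rose were Rxra, given above, and Myo1g, a class I myosin of lymphocyte membranes (0.27 ± 0.06, not called without control replicate 3, edgeR adjusted p = 0.0535). Of 22 fatty acid oxidation genes 1 rose and 1 fell, the thioesterase gene Acot7 (0.24 ± 0.07) and the thiolase gene Acaa2 (-0.44 ± 0.09). Acot7 lost its call without each library but LCA50 replicate 1 (edgeR adjusted p of 0.0588 to 0.122), and Acaa2 without control replicate 3 (edgeR adjusted p = 0.0509). None of 14 tested receptors for bile acids, vitamin D and other lipids was called, and the most abundant of them, the glucocorticoid receptor gene Nr3c1, was at 99.6, 74.5 and 86.4 CPM in LCA50 and at 74.5, 87.5 and 84.3 CPM in control. Of 9 exporter and organic anion carrier genes, Slco3a1 rose (0.46 ± 0.09), and Slco4a1 (-0.57 ± 0.14) and the multidrug exporter Abcb1b (-0.51 ± 0.13) fell. The last 2 were not called without control replicate 3 (edgeR adjusted p = 0.182 for Slco4a1 and 0.0506 for Abcb1b), nor was Abcb1b without control replicate 1 (edgeR adjusted p = 0.0566) or LCA50 replicate 1 (edgeR adjusted p = 0.127).

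Called genes of redox defence, iron and metal handling were mostly higher. Of 28 tested glutathione genes and NRF2 targets 6 rose and 0 fell (median 0.06). Gclm, the regulatory subunit of the rate-limiting enzyme of glutathione synthesis, was at 125, 109 and 114 CPM in LCA50 and at 63.6, 59.4 and 57.8 CPM in control (0.95 ± 0.11, edgeR adjusted p = 6.8e-07). Hmox1, which degrades haem, was at 104, 72.5 and 54.6 CPM in LCA50 and at 28.6, 29.2 and 29.4 CPM in control (1.40 ± 0.24, edgeR adjusted p = 0.00141). The haem transporter Slc48a1 (0.50 ± 0.10), the thioredoxin reductase Txnrd1 (0.39 ± 0.08), Gclc and Srxn1 were the other called members. Without LCA50 replicate 1, 4 members were called.

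Both ferritin chains, which store iron, rose while the transferrin receptor, which imports it, fell. Ferritin heavy chain Fth1 was at 1979, 2145 and 1950 CPM in LCA50 and at 1424, 1378 and 1361 CPM in control (0.55 ± 0.06, edgeR adjusted p = 1.1e-07), and light chain Ftl1 at 522, 503 and 472 CPM in LCA50 and at 336, 286 and 278 CPM in control (0.73 ± 0.09). Tfrc (chromosome 16, 32608920 to 32632794) was at 308, 310 and 364 CPM in LCA50 and at 537, 550 and 559 CPM in control (-0.75 ± 0.08, edgeR adjusted p = 4.95e-07). The 3 genes were the only called members of 12 in the iron list, in the fit of all libraries and in each fit with 1 library left out. The median change of that list was -0.091, and 5 of the 12 members had a positive change. The metal-binding metallothioneins Mt1, at 412, 382 and 306 CPM in LCA50 and at 216, 197 and 171 CPM in control, and Mt2, at 191, 135 and 120 CPM in LCA50 and at 61, 52.8 and 42.1 CPM in control, rose by 0.91 ± 0.10 and 1.52 ± 0.19 (edgeR adjusted p = 4.41e-07 for Mt1 and 0.000105 for Mt2). Ferritins and metallothioneins have close copies in the genome, and the sources used here do not say how shared reads were assigned.

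Called cytokine genes were all higher. Of 21 tested cytokines and chemokines 7 rose and 0 fell, with a median change of 0.56, and 7 were called without LCA50 replicate 1 as well. Lymphotoxin alpha, Lta (chromosome 17, 35203165 to 35205351, minus strand), was at 640, 437 and 382 CPM in LCA50 and at 186, 188 and 170 CPM in control. Each LCA50 library was more than 2 times above every control library, and the change was 1.42 ± 0.13 (edgeR adjusted p = 2.82e-06). Its neighbour Tnf was at 75.3, 46.7 and 59.7 CPM in LCA50 and at 32.8, 35.6 and 27.1 CPM in control (0.93 ± 0.15, edgeR adjusted p = 0.000123). Il24, a cytokine of the interleukin 10 family, was at 36, 37.4 and 40.5 CPM in LCA50 and at 18.4, 12.8 and 21 CPM in control (1.12 ± 0.20). Osm, a gp130 cytokine and STAT5 target, rose by 0.78 ± 0.14. Ifng had 88, 44 and 28 counts in LCA50 and 0, 18 and 5 counts in control, where the 0 allows up to 0.591 CPM by counting error. Its change of 3.01 ± 0.74 (edgeR adjusted p = 0.0245) rests on few counts, and without control replicate 3 it was not called (edgeR adjusted p = 0.117). Il10 and Tgfb1 were called as well.

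Of 20 cytotoxic granule genes 1 rose and 2 fell (median -0.12). Beside shares of 2.93% higher and 3.42% lower over all tested genes, counts of 1 or 2 in a list of this size say nothing about it. The granzyme inhibitor Serpinb9 rose by 0.28 ± 0.08, Ctsc, the protease that activates granzymes, fell by 0.43 ± 0.09, and the lysosomal membrane gene Lamp1 fell by 0.27 ± 0.06. Serpinb9 lost its call without each library but LCA50 replicate 2 (edgeR adjusted p of 0.057 to 0.178). Of 31 T cell receptor induced early genes 7 rose and 0 fell (median 0.31), among them the phosphatase genes Dusp2 (142, 120 and 112 CPM in LCA50 and 66.6, 68.1 and 63.4 CPM in control, 0.91 ± 0.11), Dusp5 (0.49 ± 0.12) and Dusp1 (0.72 ± 0.19), and the AP-1 gene Fosl2 (0.95 ± 0.17). Cd69, Jund and Spry1 were the others, Jund not without LCA50 replicate 1 (edgeR adjusted p = 0.114). This count was 3 without LCA50 replicate 1 and 3 without control replicate 3. Dusp5 lost its call without control replicate 3 (edgeR adjusted p = 0.0727) and Dusp1 without control replicate 2 (edgeR adjusted p = 0.0819) or LCA50 replicate 1 (edgeR adjusted p = 0.157). In the list of 19 NF-kB subunits and feedback genes, the adaptor Traf1 rose (0.43 ± 0.09) and the protease Malt1 fell (-0.49 ± 0.10).

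The few called costimulatory and inhibitory receptors went both ways, where 2.93% of all tested genes rose and 3.42% fell. Of 19 costimulatory receptors 2 rose and 4 fell (median -0.013). Tnfrsf9, the gene of 4-1BB, was at 990, 771 and 793 CPM in LCA50 and at 519, 523 and 462 CPM in control (0.76 ± 0.09, edgeR adjusted p = 3.23e-06), and Tnfrsf18, the gene of GITR, rose by 0.41 ± 0.09. Cd27 was at 68.2, 122 and 135 CPM in LCA50 and at 186, 190 and 185 CPM in control (-0.78 ± 0.17, edgeR adjusted p = 0.00806), and Slamf6, Cd28 and the TNF receptor Tnfrsf1a fell by 0.63 ± 0.15, 0.37 ± 0.09 and 0.46 ± 0.14. Calls were lost for Tnfrsf18 without LCA50 replicate 1 (edgeR adjusted p = 0.06) and for Slamf6 without control replicate 2 (edgeR adjusted p = 0.0747). Cd28 and Tnfrsf1a lost theirs without control replicate 1, control replicate 3 or LCA50 replicate 1 (edgeR adjusted p of 0.0574 to 0.248). Of 17 inhibitory receptors and ligands 1 rose and 3 fell (median 0.015). Havcr2, the gene of TIM-3, was at 25, 30.1 and 36.3 CPM in LCA50 and at 13.4, 10.6 and 13.7 CPM in control (1.28 ± 0.21, edgeR adjusted p = 0.000173). Btla was at 12.2, 15.4 and 17.1 CPM in LCA50 and at 32.6, 39 and 29.6 CPM in control (-1.17 ± 0.18, edgeR adjusted p = 8.56e-05), Ctla4 fell by 0.39 ± 0.09, and the collagen receptor Lair1 by 0.95 ± 0.23. Lair1 lost its call without control replicate 2 (edgeR adjusted p = 0.0559) or LCA50 replicate 1 (edgeR adjusted p = 0.0767).

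Naive and memory genes were lower more often than higher, with 10 of 29 called lower and 1 higher (median -0.09). The interleukin 7 receptor Il7r was at 82.5, 97.7 and 97.2 CPM in LCA50 and at 128, 142 and 121 CPM in control (-0.50 ± 0.11). Tcf7, the transcription factor TCF1 of memory and stem-like cells, was at 194, 268 and 270 CPM in LCA50 and at 332, 324 and 352 CPM in control (-0.46 ± 0.10). Art2b, an ADP-ribosyltransferase of resting T cells, fell by 1.94 ± 0.39. Bcl6, Dapl1, Klf2, Ly6c2, Nsg2 and S1pr1 also fell, and the survival gene Bcl2 rose, at 705, 540 and 533 CPM in LCA50 and 449, 452 and 453 CPM in control (0.39 ± 0.08). The lower count was 8 without LCA50 replicate 1 and 5 without control replicate 2.

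Of 28 effector and lineage transcription factors 6 rose and 3 fell. Eomes, a T-box factor of memory cells, was at 100, 126 and 139 CPM in LCA50 and at 89.7, 76.8 and 87.9 CPM in control (0.52 ± 0.10), while its relative Tbx21, the gene of T-bet, was at 88.7, 164 and 122 CPM in LCA50 and at 184, 196 and 188 CPM in control (-0.59 ± 0.15). Runx2 (0.64 ± 0.13), Id2 (0.41 ± 0.08), Bhlhe40 (0.34 ± 0.08), Gata3 and Nfil3 rose, and Ets1 (-0.26 ± 0.07) fell with Hic1. Tbx21 lost its call without each control library or LCA50 replicate 3 (edgeR adjusted p of 0.0509 to 0.0757). Bhlhe40 lost it without LCA50 replicate 1 (edgeR adjusted p = 0.0562), and Ets1 without control replicate 1, control replicate 3 or LCA50 replicate 1 (edgeR adjusted p of 0.0705 to 0.175). The list's lower count was 1 without control replicate 1 or 3, and its higher count 4 without LCA50 replicate 1.

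Of 31 cytokine receptors, STAT5 targets and SOCS genes 7 rose and 5 fell. Cish, a STAT5-induced brake, was at 499, 326 and 308 CPM in LCA50 and at 227, 231 and 217 CPM in control (0.74 ± 0.13, edgeR adjusted p = 0.00128), the cyclin gene Ccnd3 rose by 0.31 ± 0.07, the survival gene Bcl2l1 by 0.57 ± 0.13 and Socs1 by 0.49 ± 0.11. Ccnd2, Ifngr2 and Pim1 were the others. Ifngr1, the ligand-binding chain of the interferon gamma receptor, was at 394, 542 and 570 CPM in LCA50 and at 788, 809 and 844 CPM in control (-0.69 ± 0.09, edgeR adjusted p = 2.5e-05), and Stat4 (-0.42 ± 0.08), Il21r (-0.28 ± 0.07), Il12rb2 and Il7r fell. Socs1 lost its call without control replicate 2 or 3 or LCA50 replicate 1 or 2 (edgeR adjusted p of 0.0505 to 0.0778), and Il21r without control replicate 2 or 3 or LCA50 replicate 2 or 3 (edgeR adjusted p of 0.0571 to 0.0737). The higher count was 4 without control replicate 1 or 3, and the lower count 3 without control replicate 2, control replicate 3 or LCA50 replicate 2.

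Of 46 genes of the actin cytoskeleton, adhesion and nuclear lamina 10 rose and 4 fell, around a list median of -0.03. Beside Lmna and Vim, the actin capping gene Capg was at 342, 350 and 335 CPM in LCA50 and at 240, 244 and 239 CPM in control (0.51 ± 0.08, edgeR adjusted p = 4.03e-05), and Vasp, which elongates actin filaments, rose by 0.44 ± 0.08. Scin, an actin-severing protein, was at 75.3, 6.34 and 13.6 CPM in LCA50 and at 3.75, 2.45 and 3.38 CPM in control, the highest change of the named genes (3.28 ± 0.79, edgeR adjusted p = 0.0267). Replicate 1 was more than 5 times above the others, the change without it was 1.63 ± 0.42 (edgeR adjusted p = 0.0162), and the call was lost without each control library (edgeR adjusted p of 0.0785 to 0.105). Actg1, Anxa1, Enah, Thbs1 and Zyx were also called higher. The members that fell were the focal adhesion gene Vcl (-0.97 ± 0.18), the tubulin gene Tubb6 (-0.86 ± 0.14), the tetraspanin gene Tspan2 (-1.76 ± 0.35) and Itih5. Without control replicate 3 the higher count was 6.

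Called homing genes went both ways, with 4 of 28 higher and 5 lower (median 0.026), where 2.93% of all tested genes rose and 3.42% fell. The enzymes that build selectin ligands were among those that rose: the fucosyltransferase Fut7 was at 47.9, 76.7 and 64.8 CPM in LCA50 and at 37.3, 39.6 and 32.3 CPM in control (0.80 ± 0.14), and the core 2 enzyme Gcnt1 at 25.5, 15.7 and 26.1 CPM in LCA50 and at 8.49, 7.17 and 10.7 CPM in control (1.34 ± 0.26). A second fucosyltransferase, Fut4, was at 3.1, 16.4 and 12.6 CPM in LCA50 and at 35.2, 39 and 45.8 CPM in control (-1.87 ± 0.34, edgeR adjusted p = 0.00263). The integrin beta chains Itgb7 (-0.40 ± 0.07), Itgb2 (-0.43 ± 0.07) and Itgb1 (-0.31 ± 0.08) and the chemokine receptor Cxcr3 fell, and the chemokine receptors Ccr4 (0.84 ± 0.24) and Cxcr6 (0.48 ± 0.14) rose. Itgb1 and Ccr4 lost their calls without control replicate 2, control replicate 3 or LCA50 replicate 1 (edgeR adjusted p of 0.0678 to 0.319), and Cxcr6 without each library but LCA50 replicate 1 (edgeR adjusted p of 0.0981 to 0.13). The higher count was 2 without control replicate 2 or 3, and the lower count 3.

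Interferon response genes were more often lower than higher in LCA50, with 11 of 50 called lower, 1 higher and a median change of -0.23. Ifi203, of the interferon-inducible p200 family, was at 16.4, 27.9 and 24.4 CPM in LCA50 and at 47.8, 45.8 and 47.5 CPM in control (-1.03 ± 0.15, edgeR adjusted p = 4.04e-05). The transcription factor gene Irf1 was at 407, 453 and 445 CPM in LCA50 and at 556, 584 and 556 CPM in control (-0.38 ± 0.07), and the immunity-related GTPases Igtp and Irgm2 fell by 0.38 ± 0.07 and 0.51 ± 0.09. Gbp2, Gbp3, Gbp7, Ifi47, Iigp1, Oas1a and Parp9 were the other members that fell. Ifi204 rose, at 13.3, 13.7 and 16.5 CPM in LCA50 and 6.52, 6.22 and 7.61 CPM in control (1.09 ± 0.31), a call lost without each control library or LCA50 replicate 3 (edgeR adjusted p of 0.0668 to 0.109). The lower count was 7 without LCA50 replicate 1. Of 17 antigen presentation genes 2 fell, the class I genes H2-Q7 (-0.46 ± 0.09) and H2-T23 (-0.36 ± 0.08). These class I genes, the p200 genes and the interferon-induced GTPases have near copies, so their values are uncertain where reads were shared. Of 5 killer lectin-like receptors tested, the NK receptor chains Klrd1 (94.6, 152 and 151 CPM in LCA50 and 205, 229 and 205 CPM in control, -0.68 ± 0.13) and Klrk1 (-0.67 ± 0.16) fell, Klrk1 not without control replicate 2 (edgeR adjusted p = 0.0653).

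Genes of T cell receptor signalling were called lower in 5 of 27 and higher in 1 (median -0.14). Themis, a signalling protein of T cell development, was at 264, 273 and 285 CPM in LCA50 and at 382, 371 and 355 CPM in control (-0.43 ± 0.07, edgeR adjusted p = 0.00018), and the inhibitory coreceptors Cd5 (-0.60 ± 0.13) and Cd6 (-0.39 ± 0.08), the coreceptor chain Cd8b1 (-0.35 ± 0.08) and the phosphatase Ptpn6 fell.

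Of 35 mitotic genes 10 fell and 0 rose (median -0.17, with 2 positive values). The count was 2 without LCA50 replicate 1 and 2 without control replicate 3. The checkpoint kinase Bub1b was at 234, 273 and 304 CPM in LCA50 and at 361, 332 and 366 CPM in control (-0.38 ± 0.08), and the centromeric histone Cenpa at 148, 216 and 213 CPM in LCA50 and at 289, 290 and 274 CPM in control (-0.56 ± 0.13). Incenp (-0.29 ± 0.07) and Kif20b (-0.40 ± 0.11) were also called, with Aspm, Aurkb, Ccnb1, Ccnb2, Kif11 and Mki67. Cenpa lost its call without control replicate 1 or 2 (edgeR adjusted p of 0.0536 to 0.0576), Incenp without control replicate 3 or LCA50 replicate 1 (edgeR adjusted p of 0.0836 to 0.119), and Kif20b without those or control replicate 1 (edgeR adjusted p of 0.0888 to 0.206). None of 40 DNA replication genes was called by edgeR, and their median was -0.06.

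In central metabolism, 2 of 31 glycolysis and hypoxia genes rose and 5 fell (median -0.04). Pdk1, the kinase that restrains pyruvate dehydrogenase, was at 204, 195 and 188 CPM in LCA50 and at 264, 258 and 250 CPM in control (-0.39 ± 0.08, edgeR adjusted p = 0.00105). The aldolase gene Aldoc fell by 0.95 ± 0.19, the mitophagy receptor Bnip3l by 0.45 ± 0.11 and Pfkp by 0.21 ± 0.06, with Slc2a3, while Aldoa (0.22 ± 0.06) and Gapdh (0.22 ± 0.07) rose. Gapdh lost its call without any 1 of the 6 libraries (edgeR adjusted p of 0.0773 to 0.158). Pfkp lost it without each control library or LCA50 replicate 1 (edgeR adjusted p of 0.06 to 0.234), Aldoa without control replicate 3 or LCA50 replicate 2 (edgeR adjusted p of 0.0584 to 0.0756) and Bnip3l without control replicate 3 (edgeR adjusted p = 0.0526). The lower count was 2 without control replicate 3. Of 79 respiratory chain subunits Sdhd fell (-0.34 ± 0.10, not called without each control library or LCA50 replicate 1, edgeR adjusted p of 0.0845 to 0.271), and none of 77 mitochondrial ribosomal protein genes was called by edgeR.

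Of 82 cytosolic ribosomal protein genes 4 were called higher, among them Rpl6, Rpl4 and Rplp1, with changes of 0.20 to 0.50 over the 4, and 71 of the 82 had a positive change (median 0.11, against 0.004 over all genes). The count was 0 without control replicate 2, control replicate 3 or LCA50 replicate 2, and many pseudogene copies make single ribosomal genes uncertain. The list's median difference from the control mean was 0.071, 0.177 and 0.116 in LCA50 replicates 1, 2 and 3. In control replicates 1, 2 and 3 it was 0.055, 0.002 and -0.044, so LCA50 replicate 1 lay close to control replicate 1. Over all tested genes 2.93% were called higher and 3.42% lower, and counts of 1 or 2 in the lists of this paragraph say nothing about those lists. Of 37 endoplasmic reticulum chaperone and degradation genes Herpud1 rose (0.42 ± 0.09) and Edem3 fell (-0.76 ± 0.19, not called without control replicate 3, edgeR adjusted p = 0.102), and of 25 heat shock and mitochondrial chaperone genes 3 rose. These were the mitochondrial protease Lonp1 (562, 336 and 318 CPM in LCA50 and 244, 246 and 271 CPM in control, 0.67 ± 0.16), Hspa9 (0.32 ± 0.09) and Hsph1 (0.26 ± 0.08). None was called without control replicate 1 or 2 (edgeR adjusted p of 0.0728 to 0.186), and the list's count was 1 without LCA50 replicate 1. Hspa9 was not called without control replicate 3 (edgeR adjusted p = 0.0978) or LCA50 replicate 1, where its change was 0.135 (edgeR adjusted p = 0.347), and Hsph1 not without any LCA50 library (edgeR adjusted p of 0.0661 to 0.136). Of 39 lysosome and autophagy genes 1 rose, Mcoln1 (0.43 ± 0.12), and those that fell included Acp5, Map1lc3b (-0.51 ± 0.11), Lamp1 and Ctsl. Mcoln1 lost its call without control replicate 1 or 3 or LCA50 replicate 1 or 2 (edgeR adjusted p of 0.089 to 0.146). Of 19 p53 targets the nuclease gene Aen rose (0.51 ± 0.16) and Trp53inp1 (-0.77 ± 0.14) and Btg2 (-0.72 ± 0.16) fell. Aen lost its call without each control library or LCA50 replicate 1 (edgeR adjusted p of 0.0636 to 0.458), and Btg2 without control replicate 3 (edgeR adjusted p = 0.0588). Of 23 Bcl2 family and caspase genes, Bcl2 and Bcl2l1 rose.

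**Figure D2:**
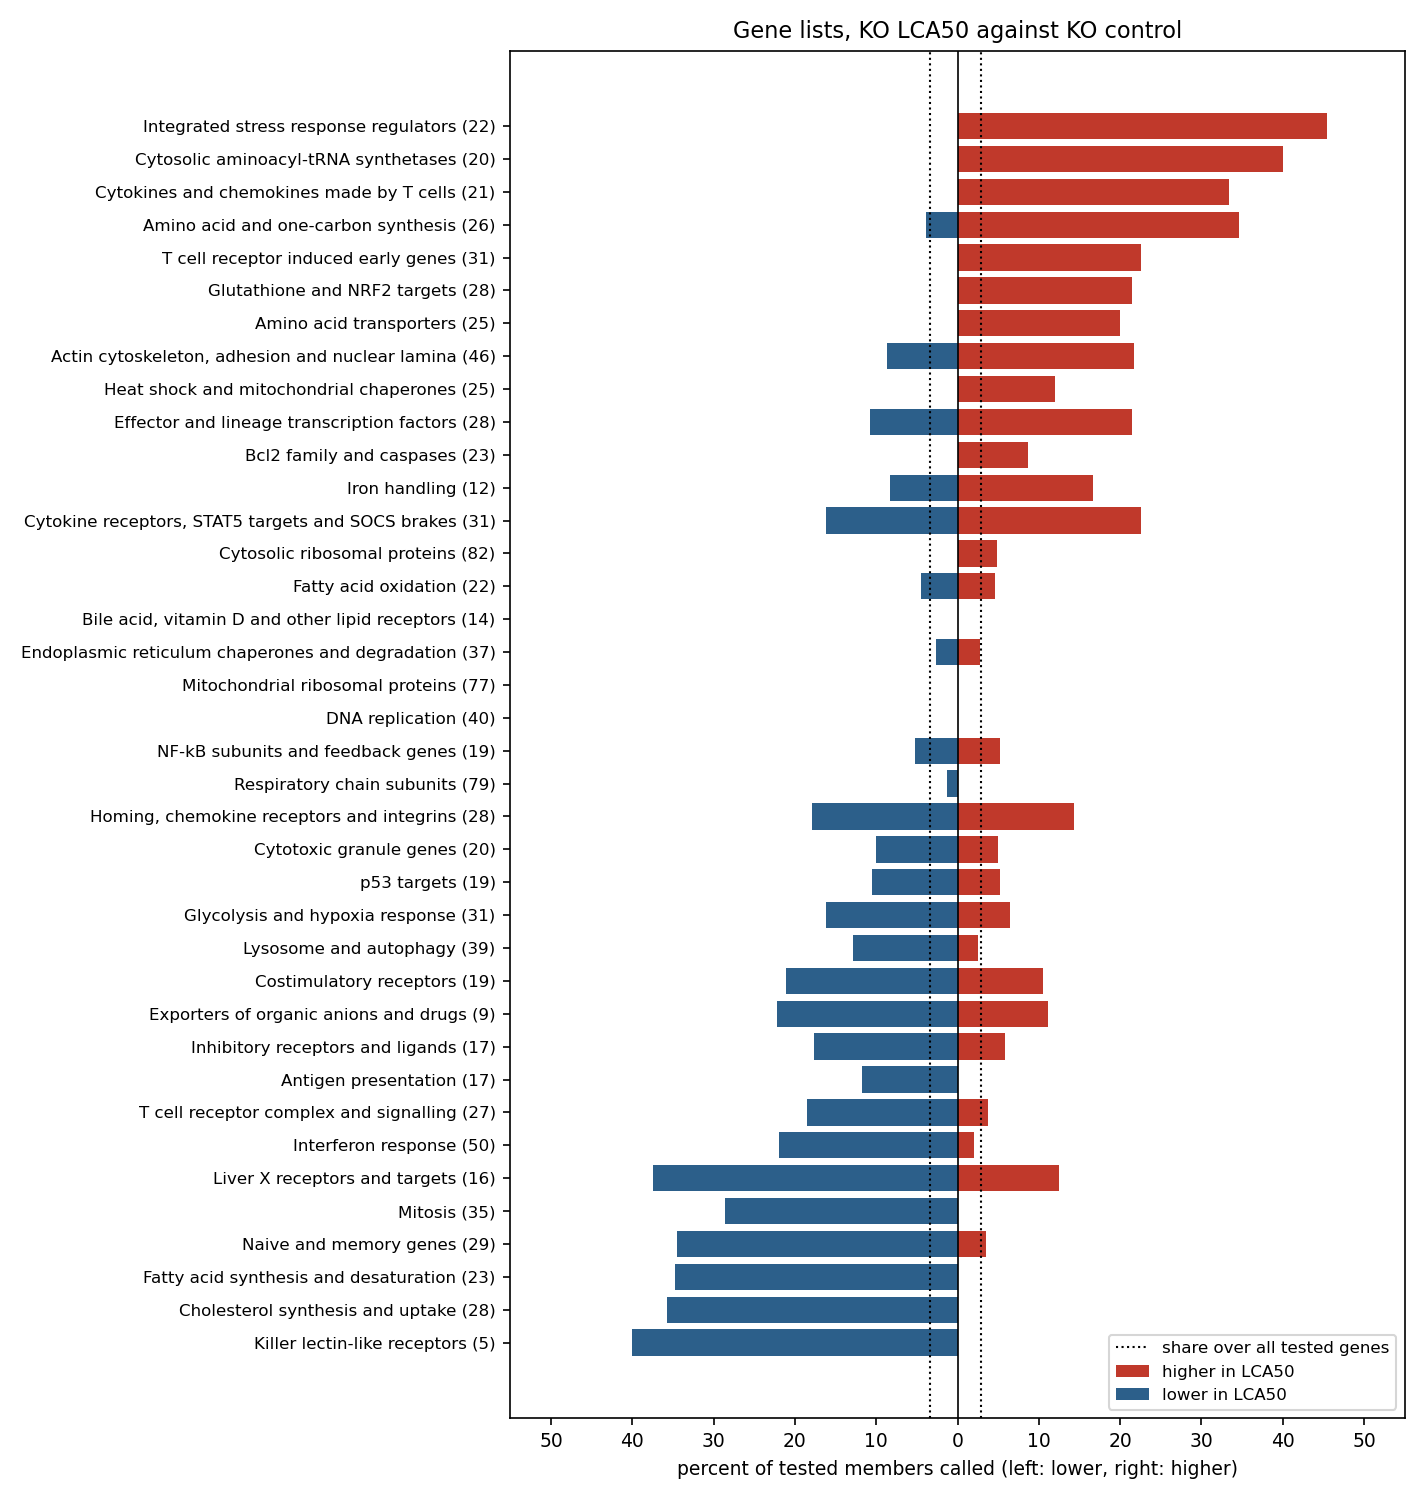
Percent of the tested members of 38 pathway lists that were called higher (red, to the right) or lower (blue, to the left) in LCA50 than in control, with dotted lines at the shares over all tested genes (2.93% higher and 3.42% lower). The amino acid, stress and cytokine lists lie on the higher side and the cholesterol, fatty acid and mitosis lists on the lower side.

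LCA50 replicate 1 responded more than replicates 2 and 3. On genes that the 6 libraries did not choose, the 426 genes called higher and 574 called lower by 50 µM LCA in WT cells were followed. The WT LCA50 libraries share the high receptor background of replicate 1. With that background as a covariate the 1000 WT calls became 339, while the 740 Nur77-KO calls became 999. Every WT LCA50 library had more background than every WT control library, so background and LCA cannot be told apart in WT cells. The part of the background in the values below was not tested. Relative to the Nur77-KO control mean, the median of the 426 genes was 0.43, 0.27 and 0.24 on the log2 CPM scale in LCA50 replicates 1, 2 and 3, and that of the 574 genes was -0.48, -0.26 and -0.25. The control libraries lay between -0.01 and 0.02 for both sets. Of the 1000 genes, 718 had their largest change in replicate 1 (71.8%), 155 in replicate 2 (15.5%) and 127 in replicate 3 (12.7%). Scaled by counting error, the mean squared difference per gene was 8.19 between LCA50 replicates 1 and 2 and 7.79 between replicates 1 and 3. It was 3.53 between replicates 2 and 3 and 2.41 to 3.02 among the control libraries.

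**Figure D3:**
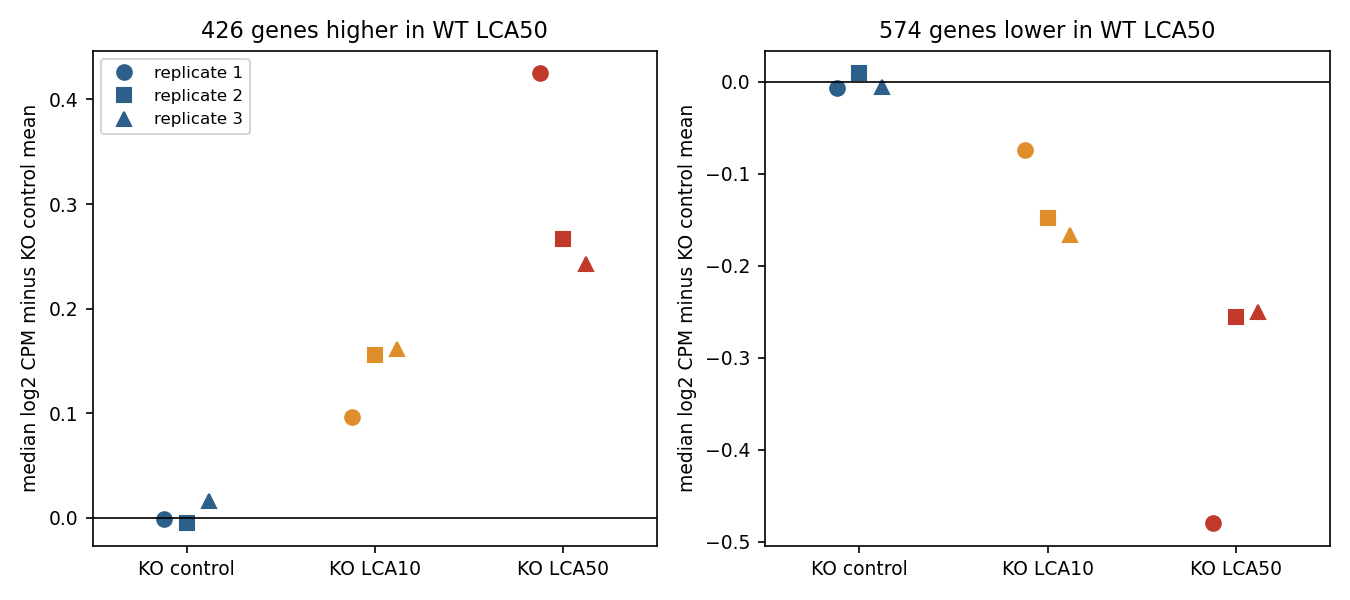
Median log2 CPM minus the Nur77-KO control mean, in each Nur77-KO library by dose. The left panel takes the 426 genes that were higher and the right panel the 574 that were lower in WT cells at 50 µM LCA. Colour marks the group (control blue, LCA10 orange, LCA50 red) and the symbol the replicate. LCA50 replicate 1 lies at 0.43 and -0.48, farther out than replicates 2 and 3, and the LCA10 libraries lie between control and LCA50.

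The lists differed in how much of their response replicate 1 held. The median of the stress response list was 0.89, 0.33 and 0.19 in LCA50 replicates 1, 2 and 3, and that of the cholesterol list was -1.01, -0.24 and -0.29. The mitosis list was at -0.38, -0.10 and -0.13. Cytokines, at 0.73, 0.32 and 0.57, were more even, and the medians of liver X receptor genes, at -0.31, -0.41 and -0.24, did not have their largest value in replicate 1. Of the 740 called genes, 528 had their largest change in replicate 1 (71.4%), and the median absolute change was 0.54 with all libraries and 0.45 without replicate 1. These values come from the genes that the comparison itself called and only describe it. Replicate 1 alone against the 3 control libraries gave 1305 calls, a fit in which the single library is taken to vary like the other groups.

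**Figure D4:**
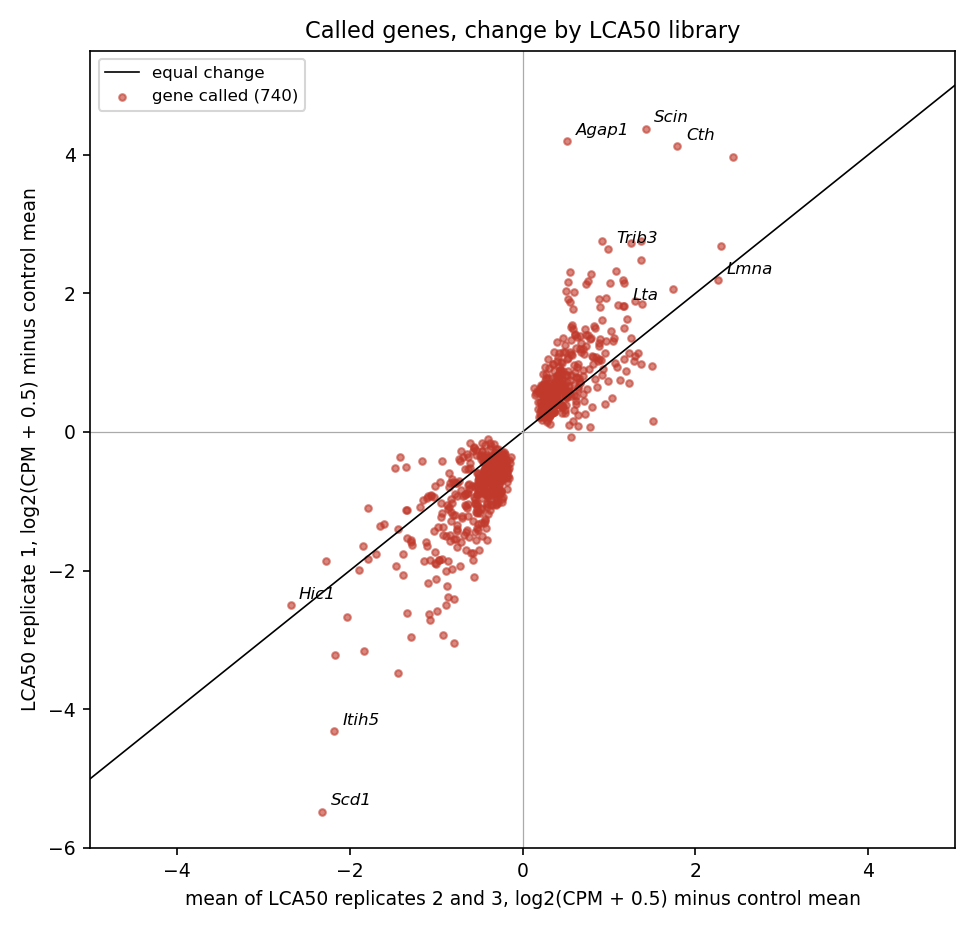
Change of each of the 740 called genes in LCA50 replicate 1 (vertical axis) against the mean of replicates 2 and 3 (horizontal axis), both as log2 of CPM plus 0.5 minus the control mean, with the line of equal change. In 584 of the 740 genes replicate 1 lies farther from control than the mean of replicates 2 and 3.

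Genes that set replicate 1 apart from close values of replicates 2 and 3 included some in which those replicates lay within or close to the control range. Agap1, which regulates endosome traffic, was at 32.4, 2.18 and 1.96 CPM in LCA50 and at 1.78, 0.754 and 1.52 CPM in control. The call for Agap1 (3.12 ± 0.87, edgeR adjusted p = 0.0398) was absent without replicate 1 (0.61 ± 0.66, edgeR adjusted p = 0.735) and without each control library (edgeR adjusted p of 0.0984 to 0.157). Aldh1l2, a mitochondrial folate enzyme, was at 31.2, 1.78 and 2.55 CPM in LCA50 and at 2.37, 1.7 and 2.2 CPM in control, and Angptl6 at 41.7, 10.5 and 9.82 CPM in LCA50 and at 8.89, 8.49 and 10.5 CPM in control. Neither was called, with edgeR adjusted p = 0.164 and 0.0673. On the low side, the perforin gene Prf1 was at 5, 30.3 and 33.2 CPM in LCA50 and at 19.6, 23.6 and 12.5 CPM in control, so replicate 1 was under and replicates 2 and 3 were over every control library. With all libraries Prf1 was not called (0.33 ± 0.46, edgeR adjusted p = 0.762), and without replicate 1 it was called higher (0.78, edgeR adjusted p = 0.04). The chemokine receptor gene Ccr2 was at 19.3, 88.1 and 97 CPM in LCA50 and at 148, 130 and 144 CPM in control. It missed the threshold with all libraries (edgeR adjusted p = 0.141) and passed it without replicate 1 (-0.60, edgeR adjusted p = 0.00783). The inhibitory receptor gene Lag3 was at 2.38, 16.6 and 12.8 CPM in LCA50 and at 16.2, 15.5 and 13.5 CPM in control, with a low value in replicate 1 only.

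Nur77-KO cells at 10 µM LCA share the control libraries with this comparison. There 38 genes were called (0.326%), 24 higher (0.206%) and 14 lower (0.12%), and 28 of the 38 were also called in LCA50 in the same direction. The count was 6 without LCA10 replicate 2, 10, 14 and 28 without control replicates 3, 2 and 1, 27 without LCA10 replicate 1 and 47 without LCA10 replicate 3. Of the 45 genes named for size, p or gap, 44 had the same sign at both doses, and in 37 of them each LCA10 library lay between the control and LCA50 means. The 45 were picked on these same control libraries, and no share over all tested genes was taken. Their counts therefore only describe them and do not show an order by dose. Lmna was at 36.1, 31.5 and 46.8 CPM in control, 89.8, 141 and 102 CPM in LCA10 and 173, 213 and 157 CPM in LCA50. Its change at LCA10 was 1.53 ± 0.23 (edgeR adjusted p = 0.00833). Gimap3 was at 497, 509 and 524 CPM in control, 381, 348 and 400 CPM in LCA10 and 260, 289 and 283 CPM in LCA50, with -0.44 ± 0.07 at LCA10 (edgeR adjusted p = 0.0012). Hic1 was among the 8 of the 45 genes without that order, at 19.6, 10.2 and 15.2 CPM in control, 2.68, 1.27 and 3.22 CPM in LCA10 and 2.15, 3.17 and 0.982 CPM in LCA50, with -2.62 ± 0.37 at LCA10 (edgeR adjusted p = 0.000197) and overlapping ranges at the 2 doses. Cth was at 5.53, 6.22 and 8.28 CPM in control and 10.5, 11.6 and 10.8 CPM in LCA10, above every control library but not called (0.70 ± 0.68, edgeR adjusted p = 0.88). Of the 4 amino acid and stress lists, 1 of 25 transporters was called at LCA10, Slc7a5 (0.32, edgeR adjusted p = 0.0141), and none of the stress response, synthesis or synthetase genes. The list medians there were 0.15 for the stress response, 0.16 for transporters, -0.03 for synthesis and 0.06 for synthetases. With so few calls over all genes, a count of 0 in lists of this size says nothing about them.

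WT cells with and without 50 µM LCA are separate libraries. There 1000 genes were called (8.58%), 426 higher (3.66%) and 574 lower (4.93%), and 429 genes were called in the same direction in Nur77-KO and WT cells, which is 58% of the Nur77-KO calls and 42.9% of the WT calls. None was called in opposite directions, and of the 740 genes called in Nur77-KO cells 721 had the same sign in WT cells and 311 were not called there. The share of same signs over all tested genes was not taken, so the 721 only describes these genes. A missing call in 1 genotype does not show a difference, so the responses were subtracted in the same model. No gene passed in that test by edgeR, with 729 genes under an unadjusted p of 0.05 (6.26%), and DESeq2 called 1, Thbs1. Changes in Nur77-KO and WT cells were 2.24 ± 0.23 and 2.43 ± 0.25 for Lmna, 3.07 ± 0.61 and 3.08 ± 0.69 for Cth, and -2.82 ± 0.38 and -2.58 ± 0.35 for Hic1. They were -0.88 ± 0.07 and -0.94 ± 0.07 for Gimap3 and 0.88 ± 0.09 and 0.88 ± 0.09 for Mov10. Among genes whose changes lay farther apart were Fth1 (0.55 ± 0.06 in Nur77-KO and 0.31 ± 0.06 in WT), Mt1 (0.91 ± 0.10 in Nur77-KO and 0.48 ± 0.10 in WT), Acp5 (-1.39 ± 0.16 in Nur77-KO and -2.07 ± 0.17 in WT) and Zfp280b (-0.93 ± 0.11 in Nur77-KO and -0.39 ± 0.10 in WT). None of these differences passed (edgeR adjusted p of 0.583 to 0.728).

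Thrombospondin 1, Thbs1 (chromosome 2, 118111876 to 118127133), a matrix glycoprotein that activates TGF beta, had the smallest p for a difference between genotypes. It was at 44.6, 22.6 and 10.6 CPM in Nur77-KO LCA50 and at 10.5, 7.73 and 8.28 CPM in Nur77-KO control, a change of 1.54 ± 0.33 (edgeR adjusted p = 0.00488). In WT cells it was at 7.72, 10.6 and 5.42 CPM with 50 µM LCA and averaged 16.75 ± 1.37 CPM (SD, n = 3) without it, a change of -1.07 ± 0.35 (edgeR adjusted p = 0.0582). The groups did not overlap in either genotype, although in Nur77-KO cells the lowest LCA50 value lay only just above the highest control value. The difference of the responses was 2.60 on the log2 scale (edgeR adjusted p = 0.172). It passed without Nur77-KO LCA50 replicate 1 (1.99, edgeR adjusted p = 0.0198), together with genes that included Ly6a, S100a10, Ifit1bl1 and Gpt2, and without Nur77-KO LCA50 replicate 3, alone.

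**Figure D5:**
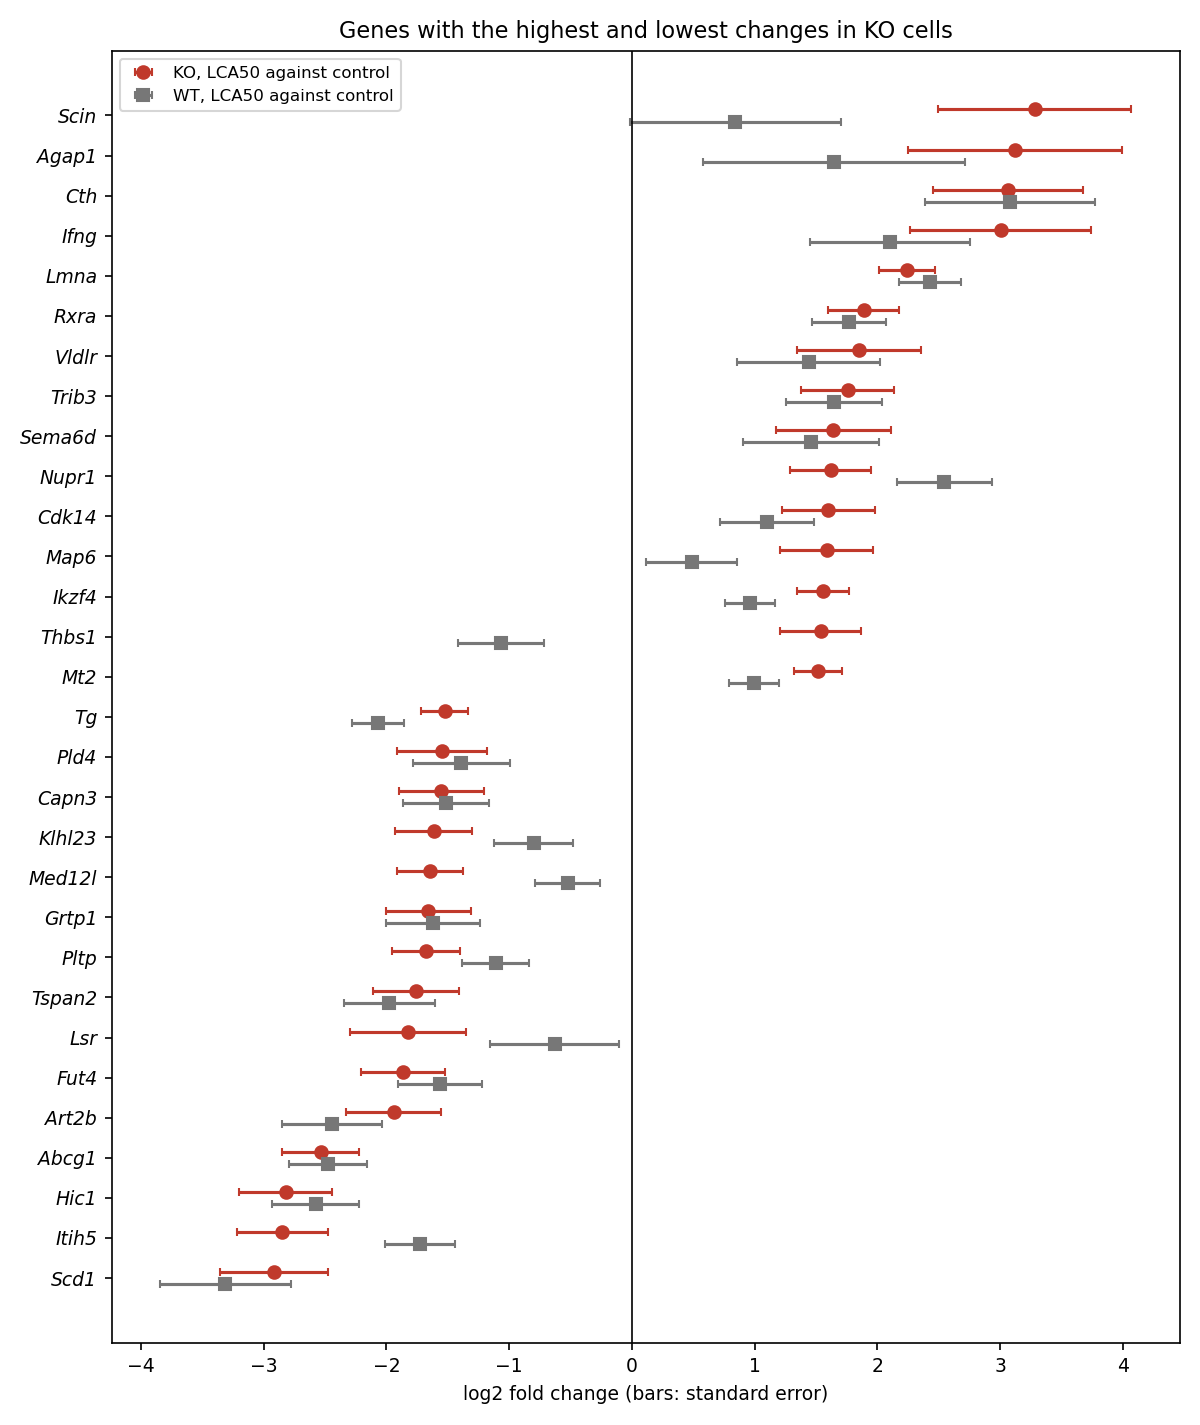
Log2 fold change ± SE at 50 µM LCA of the 15 highest and 15 lowest named genes in Nur77-KO cells (LCA50 against control) and in WT cells. Most pairs lie side by side on the same side of 0, as for Lmna (2.24 and 2.43), and Thbs1 lies on opposite sides (1.54 in Nur77-KO and -1.07 in WT).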

How the data were processed

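The authors deposited 1 table of raw counts for 24537 gene symbols in 18 libraries, with no normalization. Per the submitters' processing notes, STAR, HOMER, DESeq2 and the builds GRCm38 and mm10 were used, and the sources used here give neither versions, roles, strand nor filters. Each of the 18 columns carries 1 sample, and 0 columns were without one. The 6 libraries compared held 4113713 to 5945518 counts, so 3 counts equal 0.505 to 0.729 CPM, for counting error only.

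In R 4.3.3 with edgeR 4.0.16, 11651 genes passed filterByExpr by group, libraries were TMM-scaled and a robust quasi-likelihood model of 6 group means was fitted over all 18 libraries. Genes with a Benjamini-Hochberg adjusted p under 0.05 over all tested genes were called. SEs were obtained by dividing the size of a log2 change by the root of its F statistic, and log2 CPM has a prior count of 2. The script was tested on simulated data. Principal components came from the same log2 CPM. DESeq2 1.42.0 and voom (limma 3.58.1) were alternatives, with other filters and scaling, a replicate block, a receptor background covariate and each library left out.

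The 39 pathway and 6 marker lists, and the genes compared, were chosen with earlier results of these data known. Named genes followed a rule. Among called genes averaging 5 CPM or more in the 6 libraries, with no overlap between groups and no predicted symbol, the 15 highest and 15 lowest changes, the 10 smallest p and the 10 widest gaps each way were taken. From each list came up to 4 called members each way by p, or, with none called, the 2 most abundant. The 10 smallest p for the difference from WT, and genes in which replicate 1 lay far from replicates 2 and 3 while these lay within 0.5 on the log2 scale, completed it. Other called list members are named without values, and mostly without the fits in which their calls were lost. Genes that pass only without 1 library were chosen after their values were seen. Some genes of the lists are not reported here. The numbers 1 to 3 of the labels were not used as pairs. Gene coordinates are from GENCODE vM21 and promoter windows from RefSeq (GRCm38.p6).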

Additional observations from a re-analysis of the deposited data

Results flagged for a closer look

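In 3 of the 201 named genes every Nur77-KO library moved one way and every WT library the other at 50 µM LCA. Other tested genes were not searched for this pattern, and the 3 are among the 10 genes named for the smallest p of the difference from WT. The difference of the responses was tested in the edgeR model. For Thbs1 it was 2.60 ± 0.48 on the log2 scale (unadjusted p = 1.48e-05, edgeR adjusted p = 0.172), with the values per library given above. Zfp553, a zinc finger gene, was at 37.4, 35.9 and 32.2 CPM in Nur77-KO LCA50 and at 38.3, 39.6 and 44.6 CPM in Nur77-KO control, while WT cells had 45.1, 49.8 and 43.4 CPM with 50 µM LCA and 31.8, 32.4 and 28.5 CPM without it. The difference was -0.80 ± 0.20 (unadjusted p = 0.000386, edgeR adjusted p = 0.583). Lrrc32, the gene of the TGF beta docking receptor GARP, was at 63.4, 61.0 and 65.8 CPM in Nur77-KO LCA50 and at 69.9, 74.7 and 72.5 CPM in Nur77-KO control, while WT cells had 119.5, 177.6 and 142 CPM with 50 µM LCA and 106.6, 102.4 and 116.1 CPM without it. The difference was -0.63 ± 0.17 (unadjusted p = 0.000668, edgeR adjusted p = 0.583). None of the 3 differences passed in the main edgeR fit after adjustment over 11651 genes. Thbs1 passed with DESeq2 (DESeq2 adjusted p = 0.000346). In edgeR it passed without a filter (edgeR adjusted p = 1.33e-10) and with the receptor background as covariate (edgeR adjusted p = 0.0349). It also passed in the fits without 1 library given above. Zfp553 and Lrrc32 passed in none of the alternatives.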

How the results depend on the processing

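The 740 calls in LCA50 became 853 with DESeq2 (which gave no adjusted p for 678 genes), 740 with its size factors in edgeR, 825 without a filter, 773 at a mean CPM of at least 5, 723 without Rn45s and Lars2, 641 with voom quality weights, 999 with the receptor background as covariate and 351 with the 2 groups fitted alone. Same-numbered LCA50 and control libraries deviated together with correlations of only 0.007, 0.032 and 0.068, so the numbers were not taken as pairs. With the replicate number as a block 684 were called, 669 of them among the 740, and the block gave 38 calls at LCA10, 930 in WT and 0 for the difference from WT. Leaving out 1 library gave 381 to 824 calls, and replicate 1 alone, tried after seeing the data, 1305. The 38 calls at LCA10 became 65 with DESeq2, 103 without a filter, 111 with voom and 123 with the 2 groups alone (6 to 47 with 1 library left out). The 1000 WT calls became 339 with the background covariate (523 to 1039 with 1 library left out). The difference from WT gave 1 call with DESeq2, 3 without a filter, 7 with the covariate and 0 to 6 with 1 library left out. The cause of these shifts was not tested. Of 3210 values of 201 named genes under the alternatives, 264 lost and 34 gained a call, and no called gene changed sign. Called genes without overlap were nearly bound to keep their sign when 1 library was left out. Another 15 named genes that were not called changed sign in 39 values.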

Other observations

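The Gimap and metallothionein families were looked at after their values were seen. All 8 Gimap genes of the table, lymphocyte GTPases, were tested, and 7 of them fell in LCA50, 7 in WT cells as well and 7 without LCA50 replicate 1. Gimap7 was at 118, 229.8 and 213.8 CPM in LCA50 and at 404, 436 and 428 CPM in control (-1.17 ± 0.21, edgeR adjusted p = 0.00485), and Gimap8 at 32.9, 34.9 and 42.6 CPM in LCA50 and at 63.4, 74.1 and 72.9 CPM in control (-0.93 ± 0.13). Gimap1 was at 278, 310.2 and 250.5 CPM in LCA50 and at 291, 311 and 239 CPM in control, with no call. Of 6 metallothionein and zinc genes, Mt1, Mt2 and the zinc importer Slc39a8 (52.0, 46.4 and 48.9 CPM in LCA50 and 32.8, 28.1 and 29.9 CPM in control, 0.70 ± 0.14) rose, and Mt3, Mtf1 and Slc30a1 were not called.

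Of 50 interferon response genes, 8 rose and 0 fell in LCA10 of Nur77-KO cells (median log2 change 0.45), where 0.206% of all tested genes rose and 0.12% fell, and 1 rose and 11 fell in LCA50 (median -0.23). The 2 doses share their control libraries, and the difference between them was not tested. The 38 calls of all genes at LCA10 were 6 to 47 with 1 library left out. Of the 8 genes, only Ifi204 was also called at LCA50. Isg15, a ubiquitin-like interferon product picked after its values were seen, was at 11.5, 22.4 and 15.6 CPM in control, 44.7, 64.6 and 32.9 CPM in LCA10 and 21.7, 25.15 and 22.97 CPM in LCA50. The list's median log2 difference from the control mean was, per library, 0.48, 0.65 and 0.20 in LCA10 and -0.50, -0.16 and -0.11 in LCA50.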
